A study of Mus musculus with 24 samples.

Results

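The mitochondrial chromosome of the mouse encodes 13 proteins, all of them subunits of the respiratory chain or of ATP synthase. The 13 genes described here are the rows of the count table that lie on chromosome MT and carry the mt- prefix, out of 35591 genes in all, and all 13 are protein coding. In GENCODE, a reference gene annotation, chromosome MT also holds 22 tRNA and 2 rRNA genes, and 0 of these 24 have a row in the table, so they were not analysed here. The start, end and strand of all 13 genes were the same in the table and in GENCODE vM21, both on the GRCm38 build.

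Mitochondrial DNA is read as long transcripts from both strands, and these are cut into single mRNAs, mostly at the tRNAs that punctuate them. Most of the mRNAs receive short poly(A) tails, through which they can enter a poly(A) library, and the mRNA of mt-Nd6 is known as an exception. Every encoded protein works together with subunits made from nuclear genes, with 7 of the proteins in complex I, which oxidises NADH, 1 in complex III, 3 in complex IV, the terminal oxidase, and 2 in ATP synthase.

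The 24 libraries were poly(A) RNA-seq of 6 embryonic stem cell (mESC) lines from male mouse embryos, each derived from a single blastocyst, that were differentiated towards neuromesodermal progenitors (NMPs), the cells that give rise to spinal cord and trunk mesoderm. The 3 wild-type (wt) lines carried Smchd1[fl/+] and the 3 heterozygous (het) lines carried Smchd1[del/+], and every line came from a Castaneus mother and a C57BL/6 father of Smchd1 del/fl genotype with the MMTV-Cre transgene. Whether a line inherited the transgene is not stated in the sources used here. SMCHD1 acts on chromatin in the nucleus and helps to keep genes silent. Each line was sampled in serum and LIF (day 0), after basal medium with bFGF (day 2), and 12 to 24 h after a Wnt agonist was added on day 2 (day 2.5 and day 3). Since mitochondrial DNA passes through the mother, the lines of both genotypes share the Castaneus type, whereas reads were aligned to the C57BL/6 reference, and the effect of that difference on the counts was not tested.

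Library totals were 7.10 to 20.8 M counts, the lowest being wt line 2 on day 2.5. Pluripotency markers (7 genes, summed) were at 2566 to 2808 CPM (counts scaled to a common library size by TMM) in the day 0 libraries and 312.4 to 589.8 on day 3. Epiblast-like markers (4 genes, summed) were at 979.4 to 1175 CPM on day 0, 1213 to 1432 on day 2 and 351.3 to 468.9 on day 2.5. NMP markers (4 genes, summed) were at 211.4 to 280.3 CPM on day 0, 48.08 to 90.67 on day 2 and 480.9 to 910.6 on day 2.5. From day 2 to day 2.5, T and Cdx2 of this list were called higher in both genotypes. Sox2, which is also in the pluripotency list, was called lower (log2 fold change -0.70 in wt and -0.45 in het). The labelled course was thus seen in the sums, not in every marker. Smchd1 was at 142.6 ± 10.33 CPM in wt and 95.23 ± 6.15 CPM in het on day 0 (SD, n = 3 lines each). It was called lower in het on day 2 and day 3 (adjusted p = 0.00824 and 0.0307, edgeR). On day 0 and day 2.5 it was not called (adjusted p = 0.1 and 0.907, edgeR). Endoderm markers (16 genes, summed) did not overlap between the genotypes on day 0 and day 2 and overlapped on day 2.5 and day 3. They were at 7500 to 15480 CPM in the wt libraries of day 2 and 4620 to 6387 in the het ones, with 11 of the 13 markers tested called lower in het by edgeR, where 0.551% of all genes were called in either direction. At most 2 of the 16 markers were at 0 in all libraries of any group.

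Parts of these genes have copies in the nuclear genome. Chromosome 1 holds a long stretch of nuclear DNA copied from mitochondrial DNA, annotated in GENCODE as 7 unprocessed pseudogenes on the minus strand between 24611535 and 24616197. Aligned to their transcripts, mt-Co2 (681 bases, Gm28661), mt-Atp6 (678 bases, Gm10925), mt-Co3 (783 bases, Gm28437), mt-Nd3 (342 bases, Gm28438), mt-Nd4l (294 bases, Gm10222) and the first part of mt-Nd4 (876 bases, Gm28439) had 0 mismatches. The last part of mt-Co1 aligned to Gm29216 over 483 bases with 1 mismatch. None of these pseudogenes has a row in the count table. Between the copies of mt-Co2 and mt-Atp6 lie 233 bases with no annotated gene, the same 233 bases by length as on chromosome MT, which is where mt-Atp8 sits.

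The smallest copied gene is shown whole to let the extent of the copy be seen. It is mt-Nd4l, a complex I subunit gene at chrMT:9877-10173 (GRCm38, plus strand, single exon), from the GENCODE vM21 transcript of the C57BL/6 reference, with the 294 bases shared with Gm10222 in capitals.
mt-Nd4l: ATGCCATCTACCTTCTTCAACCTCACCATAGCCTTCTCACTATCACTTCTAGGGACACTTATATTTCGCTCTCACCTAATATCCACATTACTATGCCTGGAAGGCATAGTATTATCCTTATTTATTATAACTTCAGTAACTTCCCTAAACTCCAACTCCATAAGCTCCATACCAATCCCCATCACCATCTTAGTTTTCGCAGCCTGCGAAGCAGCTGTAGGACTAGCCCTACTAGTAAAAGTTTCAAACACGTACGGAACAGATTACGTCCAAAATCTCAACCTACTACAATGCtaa
The edge of the copy is shown for mt-Nd4, another complex I subunit gene, at chrMT:10983-11102 on the plus strand, since this gene is copied only in part. Capitals mark the last 60 bases shared with Gm28439, and lower case the first 60 bases beyond the annotated copy.
mt-Nd4: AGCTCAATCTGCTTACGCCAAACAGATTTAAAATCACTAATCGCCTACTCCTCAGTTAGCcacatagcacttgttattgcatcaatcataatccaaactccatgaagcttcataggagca
A single-end read of 75 bases that lies inside the capitals of mt-Nd4l has an equal match on chromosome 1.

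Taken over all stretches of 75 bases in each gene, mt-Nd1, mt-Nd6, mt-Cytb and mt-Atp8 shared 0% with the transcript of any other gene. The share was 5.71% for mt-Nd2, 1.66% for mt-Nd5, 39.8% for mt-Co1 and 61.5% for mt-Nd4. It was 99.5% for mt-Co2, 99.5% for mt-Atp6, 99.9% for mt-Co3, 97.8% for mt-Nd3 and 98.7% for mt-Nd4l. Shared stretches also lay in pseudogenes on other chromosomes, such as Gm13340 for mt-Co1 and Gm13341 for mt-Co2, and none of those of mt-Nd2 and mt-Nd5 lay in the chromosome 1 pseudogenes.

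On day 0 the mean levels fell into a high and a low class, and the low class was the run of 6 genes from mt-Co2 to mt-Nd4l. On the scale of CPM per kilobase of gene, mt-Nd1 was highest in wt on day 0, at 1517 ± 174 CPM per kb, followed by mt-Co1 at 1335 ± 178 and mt-Cytb at 1202 ± 86.1, and these neighbours overlapped in range. The next levels were 715 ± 129 for mt-Nd2, 508.7 ± 95.7 for mt-Nd6, 394.6 ± 35.8 for mt-Nd4 and 332.1 ± 9.93 for mt-Nd5, with overlap only between mt-Nd6 and mt-Nd4. The 6 genes of the low class followed, at 104.7 ± 14.6 for mt-Atp6, 68.13 ± 9.12 for mt-Co2, 20.26 ± 3.39 for mt-Co3, 16.62 ± 3.96 for mt-Nd3, 2.404 ± 0.842 for mt-Atp8 and 1.167 ± 0.311 for mt-Nd4l (CPM per kb, SD, n = 3 lines).

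The order was nearly the same in het on day 0, where mt-Nd1 led at 1740 ± 192 CPM per kb and only mt-Nd3 and mt-Co3 traded places. In the 24 libraries the 7 genes of the high class took 96.1% to 98.2% of all mitochondrial counts, and the 6 others took 1.80% to 3.91%. Raw counts show how little was left for the smallest genes, with 0 to 6 counts per library for mt-Nd4l, 2 to 20 for mt-Atp8 and 32 to 238 for mt-Nd3. mt-Nd4l had 0 counts in 2 libraries of day 2, where a floor of 3 counts, which covers counting error only, allows 0.163 CPM (wt line 2) and 0.193 CPM (het line 3). The levels of mt-Co2, mt-Atp8, mt-Atp6, mt-Co3, mt-Nd3 and mt-Nd4l are therefore given as counts at these rows. The levels and ranks of mt-Nd4 and mt-Co1, which share 61.5% and 39.8% of their stretches with other genes, carry the same limit, and the part of the copies in any of these values was not tested.

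**Figure D1:**
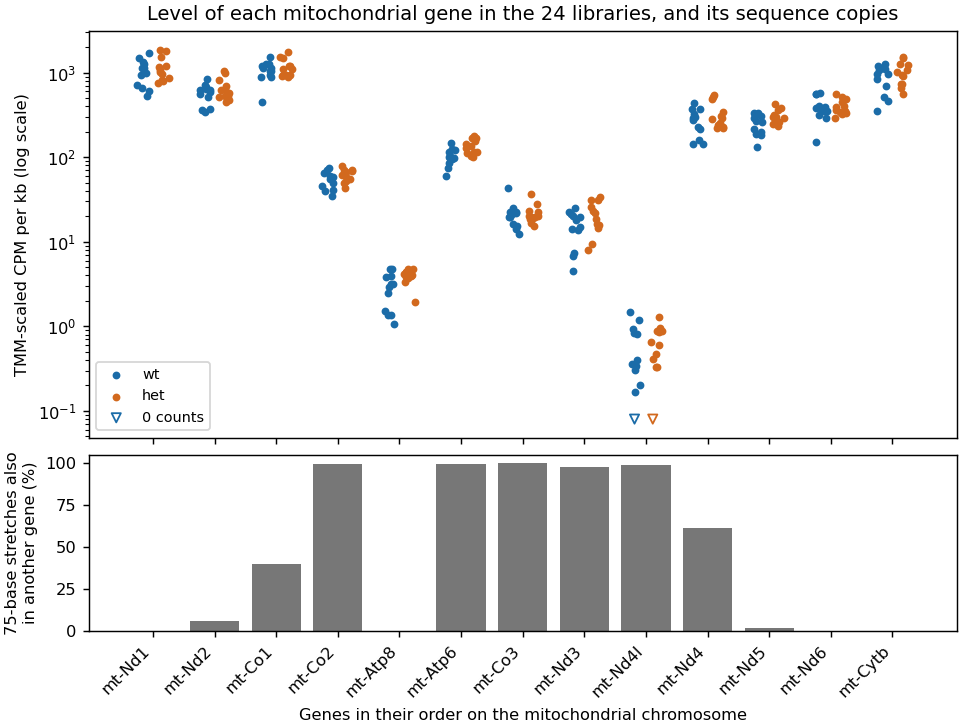
Level of each gene in TMM-scaled CPM per kb on a log axis (upper panel, 1 point per library, 12 per genotype; triangles are libraries with 0 counts) and the share of its 75-base stretches that also occur in another GENCODE transcript (lower panel, percent). mt-Nd1, mt-Co1 and mt-Cytb sit near the top, and the genes from mt-Co2 to mt-Nd4l have lower means than the rest, with mt-Nd4l lowest at 0 to 6 counts per library. The highest mt-Atp6 library (178.4 CPM per kb) lies above the lowest of mt-Nd4 (142.7), mt-Nd5 (131.6) and mt-Nd6 (152.6).

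mt-Nd6 is the only 1 of the 13 genes on the minus strand, at chrMT:13552-14070, and its end overlaps that of mt-Nd5, which encodes another complex I subunit. The labels give a stranded or a non-stranded kit without saying which for a library, and the strand setting of the counting is not stated, so reads from mt-Nd6 and from antisense RNA of the other strand cannot be told apart. Its ratio to mt-Nd5 in raw counts was 0.434 ± 0.0702 in wt and 0.383 ± 0.00494 in het on day 0. On day 3 it was 0.443 ± 0.0759 and 0.365 ± 0.0638. The ratio rose in 3 lines and fell in 3 lines over each of the 3 steps of the course, so no common direction was seen. mt-Atp8 and mt-Atp6, mt-Atp6 and mt-Co3, and mt-Nd4l and mt-Nd4 also overlap in the annotation, and how reads over both genes were counted is not stated.

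The mitochondrial share of each library was highest in undifferentiated cells. The 13 genes together took 0.630%, 0.756% and 0.681% of all counts in wt lines 1, 2 and 3 on day 0, and 0.737%, 0.826% and 0.879% in het lines 1, 2 and 3. On day 2 they took 0.364%, 0.567% and 0.386% in wt and 0.525%, 0.482% and 0.486% in het. The share was lower on day 2 than on day 0 in all 6 lines, at 0.553 to 0.750 times the day 0 value, and the groups of the 2 days did not overlap in either genotype. Over the same step the summed endoderm markers went from 2881 ± 872.4 to 11250 ± 4013 CPM in wt and from 1721 ± 319.9 to 5663 ± 926.2 CPM in het (SD, n = 3 lines), without overlap, and their part in the fall of the share was not tested.

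From day 2 the lines diverged. The share was 0.284%, 0.529% and 0.615% in wt lines 1, 2 and 3 on day 2.5 and 0.448%, 0.608% and 0.630% on day 3, so it rose in all 3 wt lines over that step. In het it was 0.631%, 0.549% and 0.574% on day 2.5 and 0.602%, 0.482% and 0.535% on day 3, a fall in all 3 lines. The difference in the share was not tested, and the test of the difference for each gene is given further on. Group means were 0.476 ± 0.172% and 0.562 ± 0.0990% for wt, and 0.585 ± 0.0419% and 0.540 ± 0.0602% for het (SD, n = 3 lines). A lower share cannot be told apart from more nuclear RNA per cell in bulk libraries of this kind.

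wt line 1 had the lowest share of the wt lines on all 4 days. Summed over days, its share was 0.426%, against 0.630% and 0.563% in wt lines 2 and 3 and 0.578% to 0.626% in the het lines. Without it the wt mean on day 2.5 was 0.572% in place of 0.476%.

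**Figure D2:**
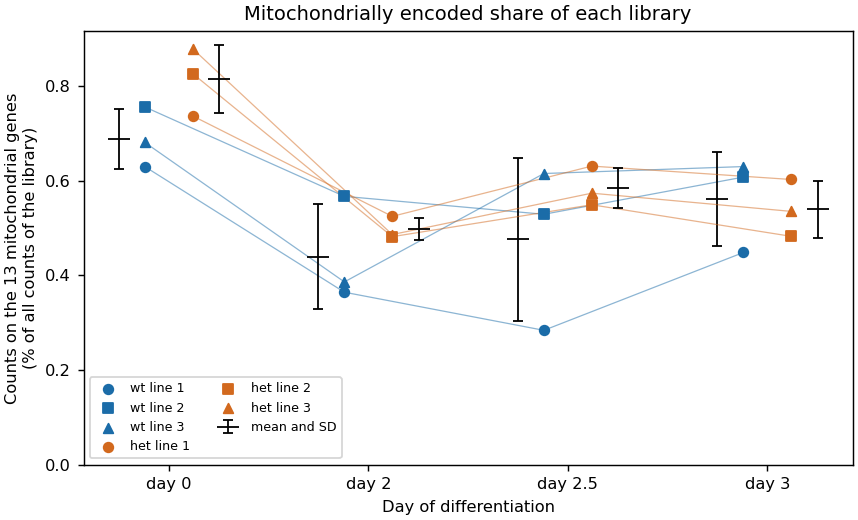
Counts on the 13 mitochondrial genes as a percent of all counts of a library (y axis, linear from 0) by day of differentiation, with thin lines joining the libraries of 1 line and black bars giving the mean and SD of 3 lines. All 6 lines fall from day 0 to day 2, and wt line 1 lies lowest of the wt lines on every day.

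Between day 0 and day 2 mt-Cytb, mt-Co1 and the complex I genes mt-Nd1, mt-Nd2, mt-Nd4, mt-Nd5 and mt-Nd6 fell in both genotypes. Tested gene by gene with the edgeR quasi-likelihood test and adjusted by Benjamini-Hochberg over all genes tested (a gene is called at an adjusted p under 0.05), 8 of the 12 genes that passed the filter on low counts were lower in wt and 0 were higher. Over all 15521 genes tested in wt, 21.9% were called lower and 22.4% higher. In het, 8 of 12 were lower and 2 were higher, where the background over 15303 genes was 28.1% lower and 28% higher. The median log2 fold change of the 12 genes was -0.60 in wt and -0.49 in het, beside 0.02 and 0.01 over all genes tested. mt-Nd4l did not pass the filter in any single comparison of days or genotypes.

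mt-Cytb encodes cytochrome b, the catalytic core of complex III. It was at 1271, 1467 and 1389 CPM in wt lines 1, 2 and 3 on day 0 and at 407.4, 961.7 and 523.2 CPM on day 2. In het it went from 1456, 1744 and 1719 CPM to 837.4, 752 and 634.3 CPM. All day 2 libraries lay below all day 0 libraries, and the gene in wt fell by 1.12 ± 0.22 on the log2 scale (± SE, adjusted p = 0.000868, edgeR) and by 1.13 ± 0.08 in het (adjusted p = 2.38e-08).

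mt-Nd1, the first protein-coding gene after the rRNAs, encodes a membrane subunit of complex I. It was at 1299, 1628 and 1429 CPM in wt lines on day 0 and at 588.6, 900.7 and 638.7 CPM on day 2. The het lines went from 1454, 1750 and 1792 CPM to 927.7, 722.5 and 787.5 CPM. The groups did not overlap in either genotype, with a log2 fold change of -1.02 ± 0.14 in wt (adjusted p = 4.34e-05, edgeR) and -1.02 ± 0.08 in het (adjusted p = 7.39e-08).

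mt-Nd4, a further membrane subunit of complex I, went from 510.9, 600.6 and 519.7 CPM to 218.1, 448.8 and 199.8 CPM in wt. In het it went from 665.4, 707.4 and 744.6 CPM to 335.6, 308.1 and 306.6 CPM, all below the day 0 libraries. Its log2 fold change was -0.91 ± 0.22 in wt (adjusted p = 0.00456, edgeR) and -1.14 ± 0.06 in het (adjusted p = 3.88e-10).

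The other complex I genes of the high class moved the same way. mt-Nd2 changed by -0.65 ± 0.18 in wt and -0.95 ± 0.08 in het, mt-Nd5 by -0.62 ± 0.13 and -0.47 ± 0.08, and mt-Nd6 by -0.57 ± 0.13 and -0.51 ± 0.07 (log2, SE), and all were called. The wt libraries of mt-Nd2 overlapped between the days, at 612.8 to 879.5 CPM on day 0 and 377 to 649.8 CPM on day 2. mt-Co1 encodes the subunit of complex IV that holds its oxygen-binding site. Its estimated fall was the smallest among the genes of the high class, 0.36 ± 0.10 on the log2 scale in wt (adjusted p = 0.0122, edgeR) and 0.45 ± 0.06 in het (adjusted p = 8.96e-06). Its values were 1835, 2368 and 1984 CPM on day 0 and 1433, 1754 and 1603 CPM on day 2 in wt. In het its fall was within the SE of that of mt-Nd5. By line, the rank did not hold in wt line 1 (mt-Nd6 fell less), wt line 2 (mt-Nd4 and mt-Nd5) or het line 3 (mt-Nd5 and mt-Nd6).

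The genes of the low class did not move together over this step. mt-Atp6, the membrane subunit of ATP synthase that forms its proton path, went from 78.52, 77.78 and 106.1 CPM to 121.5, 114.7 and 114.5 CPM in het, without overlap, a log2 fold change of 0.44 ± 0.10 (adjusted p = 0.00222, edgeR). In wt it went from 64.25, 82.67 and 66.97 CPM to 66.67, 100.4 and 71.37 CPM, which was not called (0.16 ± 0.16). mt-Co3, a complex IV subunit gene, was called higher in het at 0.49 ± 0.18, and stood at -0.03 ± 0.23 in wt. mt-Nd3 was called lower in het (-1.07 ± 0.32) and was at -0.76 ± 0.47 in wt, and mt-Co2, the complex IV subunit gene that accepts electrons from cytochrome c, was called lower in wt (-0.46 ± 0.17) and was at -0.10 ± 0.10 in het. None of these genes was called in the test of the difference between the genotypes given further on. mt-Atp8, the gene of a small ATP synthase subunit, was measured at 0.312 to 0.982 CPM in these wt libraries and was not called in either genotype.

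Without wt line 3 the number of genes called in wt went from 8 to 3 (mt-Nd1, mt-Nd5 and mt-Cytb), with 2 lines left on each day and 26.3% of all genes called, and all 8 log2 fold changes remained below 0. In het the number called was 8 or 9 with any 1 line left out, and mt-Atp6, mt-Co3 and mt-Nd3 were each not called in at least 1 of these fits. With all lines kept, some calls were lost in other settings. In wt these were mt-Nd2 by the DESeq2 Wald test, mt-Co2 with library totals alone and mt-Co1 in 1 fit of all 24 libraries. In het, mt-Co3 and mt-Nd6 were not called in that last fit.

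**Figure D3:**
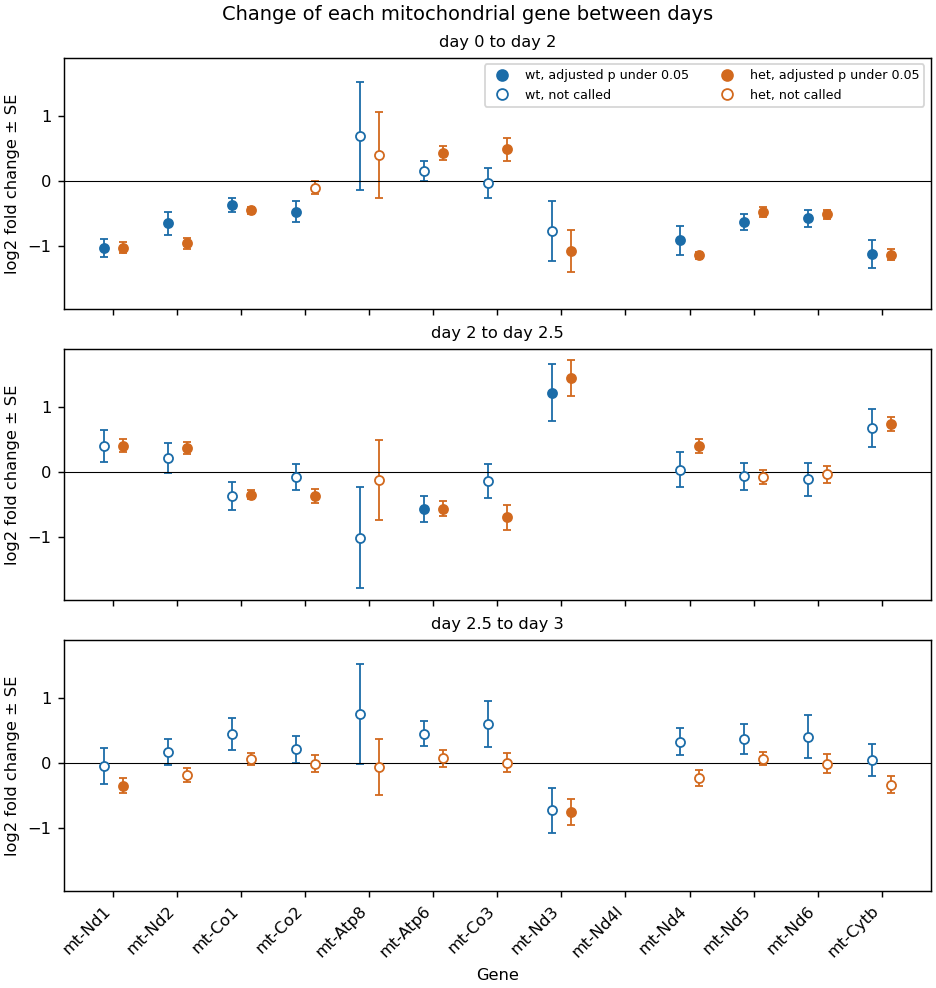
Log2 fold change of each gene over 3 steps of the course in wt and het, with bars for 1 SE and filled points for genes called (edgeR, adjusted p under 0.05). mt-Nd1, mt-Nd4 and mt-Cytb lie near -1 in both genotypes over the first step, and mt-Nd3 and mt-Cytb lie above 0 over the next step.

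In the 12 h after Wnt activation, day 2 to day 2.5, some mitochondrial genes rose while others fell. In het, 5 of 12 genes were called higher and 4 lower, where 21.8% of all 15577 genes tested were called higher and 22.9% lower. In wt, 1 gene was called higher and 1 lower, beside 14.6% and 14.5% of 15540 genes. The median over the 12 genes was -0.05 in het and -0.07 in wt on the log2 scale.

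mt-Cytb in het went from 837.4, 752 and 634.3 CPM to 1413, 1082 and 1245 CPM, every day 2.5 library above every day 2 library, a log2 fold change of 0.75 ± 0.11 (adjusted p = 8.89e-05, edgeR). In wt it went from 407.4, 961.7 and 523.2 CPM to 588.6, 1104 and 1314 CPM. The groups overlapped, with wt line 2 high on day 2 and wt line 1 low on day 2.5, and the change of 0.68 ± 0.29 was not called (adjusted p = 0.0964, edgeR). It rose in each of the 3 wt lines, and with the line as a replicate block, which compares each line with itself, the change was 0.70 ± 0.16 (adjusted p = 0.00396).

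mt-Nd3 had the highest fold change of the step, from few counts. It was at 5.522, 2.756 and 3.246 CPM in het on day 2 and at 11.69, 9.049 and 10.75 CPM on day 2.5, and in wt it went from 1.571, 6.293 and 2.349 CPM to 7.113, 8.656 and 7.925 CPM. Neither pair of groups overlapped, with log2 fold changes of 1.44 ± 0.28 in het (adjusted p = 0.000779, edgeR) and 1.22 ± 0.44 in wt (adjusted p = 0.0493). The wt call was lost without wt line 1 or wt line 3, and without wt line 1 mt-Nd1 and mt-Cytb were the genes called.

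mt-Nd1, mt-Nd2 and mt-Nd4 were called higher in het, at 0.41 ± 0.10, 0.38 ± 0.09 and 0.40 ± 0.10 on the log2 scale. In wt the same genes stood at 0.41 ± 0.24, 0.22 ± 0.23 and 0.04 ± 0.27 and were not called. The 3 complex IV genes and mt-Atp6 went the other way in het, with mt-Co1 at -0.34 ± 0.07, mt-Co2 at -0.36 ± 0.11, mt-Co3 at -0.69 ± 0.19 and mt-Atp6 at -0.56 ± 0.12. In wt mt-Atp6 was called lower (-0.56 ± 0.20, adjusted p = 0.0446, edgeR), a call lost without wt line 1 or wt line 2, and mt-Co1 at -0.36 ± 0.22 was not called. Under the replicate block 4 genes were called in wt, with mt-Co1 at -0.44 ± 0.15 (adjusted p = 0.0362) added to mt-Atp6, mt-Nd3 and mt-Cytb, beside 15.3% of all genes higher and 15.6% lower. Scaled by library totals alone, 0 were called in wt, beside 28.9% of all genes in either direction. In het the number of genes called was 4 without het line 2, beside 33.5% of all genes, and 4 again in 1 fit of all 24 libraries, beside 38.7%.

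From day 2.5 to day 3, 0 of 12 genes were called in wt, where 8.99% of 15292 genes were called higher and 10.1% lower. At an unadjusted p under 0.05 there was 1 gene of 12 in wt (mt-Atp6), beside 33.9% of all genes tested, and the DESeq2 Wald test also called 0, beside 23.6% of all genes. The log2 fold change was above 0 for 10 of 12 genes, with a median of 0.35. Under the replicate block 6 of 12 were called in wt, 5 higher and 1 lower, beside 15.3% of all genes higher and 15.4% lower. mt-Co1 was at 0.52 ± 0.11 (adjusted p = 0.0022), mt-Nd5 at 0.40 ± 0.10 (adjusted p = 0.00489), mt-Atp6 at 0.47 ± 0.11, mt-Nd4 at 0.36 ± 0.10 and mt-Nd6 at 0.47 ± 0.14, all higher, and mt-Nd3 was lower at -0.83 ± 0.28.

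In het over the same step mt-Nd3 was called lower at -0.75 ± 0.20 (adjusted p = 0.0144, edgeR) and mt-Nd1 at -0.35 ± 0.12 (adjusted p = 0.0401). The background was 13.8% higher and 16% lower over 15801 genes. mt-Nd3 went from 11.69, 9.049 and 10.75 CPM to 7.655, 5.031 and 6.511 CPM, without overlap, while mt-Nd1 went from 1119, 970.5 and 1163 CPM to 1028, 766.2 and 827.3 CPM, with overlap. mt-Cytb was at -0.33 ± 0.13 and not called, and was called under the replicate block (-0.34 ± 0.09, adjusted p = 0.02). Without het line 3 neither mt-Nd3 nor mt-Nd1 was called, beside 14.9% of all genes.

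Ratios of counts within a library do not depend on how libraries are scaled, and several moved in all 6 lines. The count of mt-Cytb divided by that of mt-Co1 was 0.693, 0.620 and 0.700 in wt lines 1, 2 and 3 on day 0 and 0.629, 0.729 and 0.625 in het. On day 2 it was 0.284, 0.548 and 0.326 in wt and 0.452, 0.408 and 0.371 in het. On day 2.5 it was 0.840, 0.798 and 0.813 in wt and 0.966, 0.791 and 0.864 in het. The ratio fell in 6 of 6 lines from day 0 to day 2, to 0.410 to 0.885 times its value, and rose in 6 of 6 lines by day 2.5, to 1.46 to 2.96 times. On day 3 it was 0.584, 0.633 and 0.626 in wt and 0.695, 0.582 and 0.710 in het, lower than on day 2.5 in 6 of 6 lines.

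The ratio of mt-Nd1 to mt-Co1 followed the same course. Its mean was 0.705 ± 0.0163 in wt and 0.671 ± 0.0542 in het on day 0, 0.441 ± 0.0633 and 0.451 ± 0.0547 on day 2, 0.755 ± 0.0275 and 0.760 ± 0.0490 on day 2.5, and 0.536 ± 0.0323 and 0.570 ± 0.0348 on day 3 (SD, n = 3 lines). It fell, rose and fell again in 6 of 6 lines. mt-Co1 shares 39.8% of its stretches with other genes while mt-Cytb shares none, so the ratio was also taken to mt-Nd5, of which 1.66% is shared. mt-Cytb to mt-Nd5 fell in 6 of 6 lines, rose in 6 of 6 and fell in 6 of 6 over the same steps, with means of 2.27, 1.56, 2.66 and 2.16 on the 4 days in wt. The ratio of mt-Nd4 to mt-Nd5 fell in 6 of 6 lines over the first step, rose in 5 of 6 over the next (0.864 times in the remaining wt line) and fell in 5 of 6 over the last (1.02 times in the remaining wt line). The pairs were picked after their values were seen, so the ratios are a description. Each day's cells were harvested in a different medium or at a different time after its change, and a preparation batch by day, if there was one, cannot be told apart from the day.

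**Figure D4:**
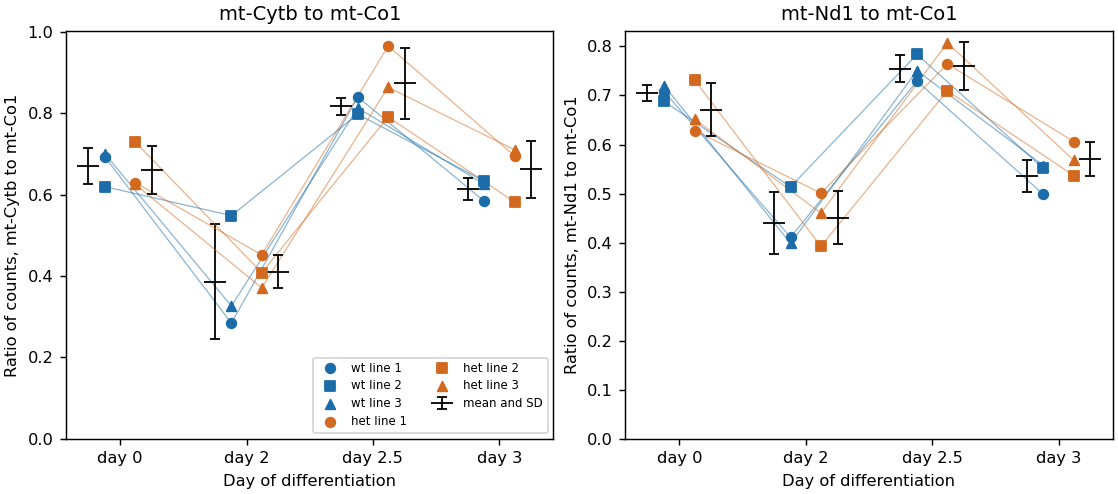
Ratio of raw counts of mt-Cytb to mt-Co1 (left) and of mt-Nd1 to mt-Co1 (right) in each library by day, with thin lines joining the libraries of 1 line and black bars for the mean and SD of 3 lines. All 6 lines fall to day 2, rise to day 2.5 and fall to day 3 in both panels.

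The edgeR test called no mitochondrial gene between cells with and without the deleted Smchd1 allele, while other settings called a few. The comparison of het with wt on each day asks whether the 2 genotypes differ, and 0 of 12 genes were called on day 0, day 2, day 2.5 or day 3 by edgeR. Over all genes tested, 0%, 0.551%, 0% and 0.00638% were called on these days. Smchd1 itself was called on day 2 and day 3 and not on day 0 or day 2.5. A lack of calls on those days therefore does not show that the genotypes were alike. At an unadjusted p under 0.05 there were 5, 4, 2 and 0 of the 12 genes, beside 10.9%, 10.2%, 5.27% and 9.13% of all genes. The DESeq2 Wald test called mt-Nd4 on day 0 and mt-Atp6 on day 2, and 0 on day 2.5 and on day 3, beside 0.834%, 1.71%, 0.0192% and 0.856% of the genes with an adjusted p. With no filter beyond 1 count, edgeR called 4, 2 and 2 mitochondrial genes on day 0, day 2 and day 2.5, beside 1.66%, 1.77% and 0.381% of all genes.

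The values nonetheless leaned one way on the first 3 days. The log2 fold change was above 0, higher in het, for 12 of 12 genes on day 0, day 2 and day 2.5, with medians of 0.24, 0.18 and 0.29, and for 4 of 12 on day 3, with a median of -0.04. The 12 genes share their libraries and their precursor transcripts and are not independent, so these counts carry no test. Without wt line 1, the line with the lowest share, the median became 0.19, 0.10 and 0.04 on the first 3 days, with 9, 8 and 8 genes above 0, and -0.18 on day 3.

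mt-Nd4 had the smallest p on day 0. It was at 510.9, 600.6 and 519.7 CPM in wt and 665.4, 707.4 and 744.6 CPM in het, without overlap, at 0.35 ± 0.07 on the log2 scale (adjusted p = 0.334, edgeR). mt-Nd5 on day 0 was likewise higher in every het library, at 584.8, 616.2 and 616.2 CPM in wt and 669, 690.6 and 769.8 CPM in het (0.20 ± 0.06, adjusted p = 0.354). mt-Atp6 had the smallest adjusted p on day 2, with 66.67, 100.4 and 71.37 CPM in wt and 121.5, 114.7 and 114.5 CPM in het, at 0.55 ± 0.13 (adjusted p = 0.0837, edgeR). On day 2.5 mt-Atp6 was at 40.47, 51.39 and 68.21 CPM in wt and 69.56, 70.56 and 98.34 CPM in het, again without overlap (0.57 ± 0.19, adjusted p = 0.907). On day 3 its groups overlapped.

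wt line 2 stood apart from the other wt lines on day 2. Its mt-Cytb was at 961.7 CPM against 407.4 and 523.2, and its mt-Nd4 at 448.8 CPM against 218.1 and 199.8. Without that line 5 of 12 genes were called higher in het on day 2 (mt-Nd2, mt-Atp6, mt-Nd4, mt-Nd5 and mt-Cytb), with a median log2 fold change of 0.57, and 2 on day 0 (mt-Nd2 and mt-Nd4), beside 0.866% and 0.439% of all genes in either direction on these days. The summed endoderm markers did not overlap between the genotypes on day 2, as given above, nor on day 0 (2315 to 3885 CPM in wt and 1356 to 1954 CPM in het), and their part in the values of these days was not tested.

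**Figure D5:**
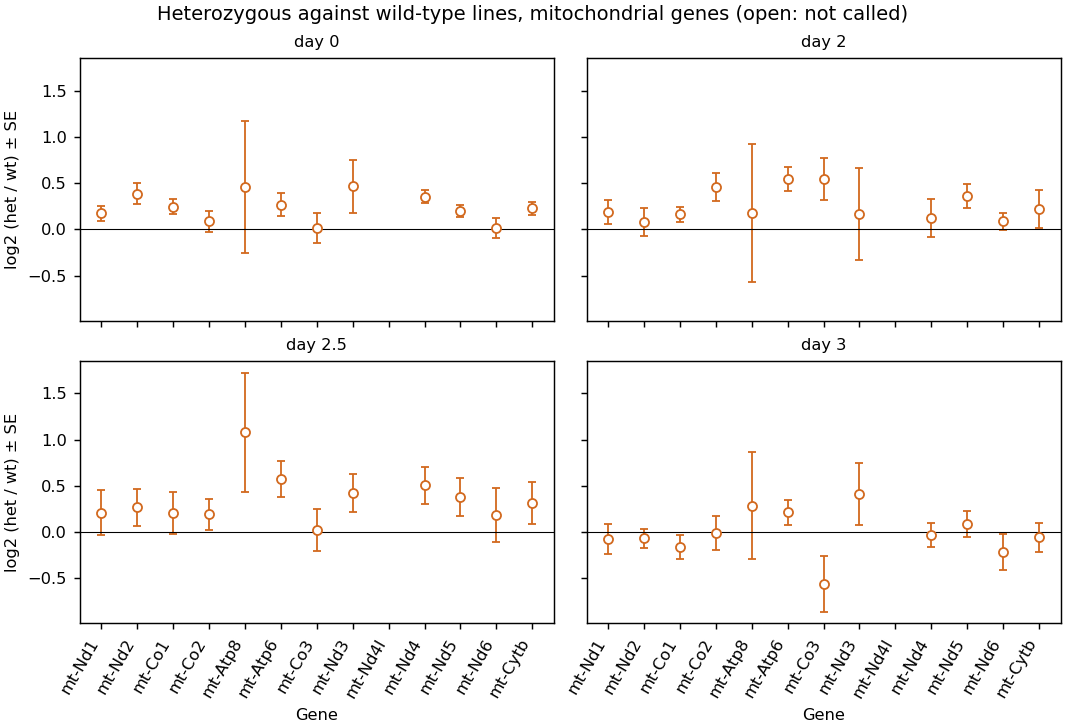
Log2 ratio of het to wt for each gene on each day, with bars for 1 SE, and open points for genes that were not called. All 12 points lie above 0 on day 0, day 2 and day 2.5, whereas 4 of 12 do on day 3.

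Summing the 4 days of each line gives 1 deeper sample per line and brings mt-Nd4l into the test, with 73 counts over the 24 libraries. None of the 13 genes was called by edgeR, beside 0.00544% of 18371 genes, and none of the 12 with an adjusted p by the DESeq2 Wald test (mt-Nd4l had none), beside 0.934% of the genes with one. At an unadjusted p under 0.05 there were 3 (mt-Atp6, mt-Nd3 and mt-Nd5), beside 9.05% of all genes. mt-Atp6 was at 0.35 ± 0.12 and mt-Nd3 at 0.47 ± 0.17 (log2, adjusted p = 0.446 and 0.451, edgeR), and mt-Nd6 was at 0.00 ± 0.13. The median was 0.21, and 0.04 without wt line 1.

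No gene that passed the filter was called for a difference between the genotypes in its change over a step. The interaction of genotype with step had 0 of 12 genes called over day 0 to day 2, day 2 to day 2.5 and day 2.5 to day 3, with 0% of 16387, 0% of 16569 and 0% of 16486 genes called overall by edgeR, and the DESeq2 Wald test called 0 in each (mt-Atp8 had no adjusted p over the first step), beside 0.0757%, 0% and 0% of all genes. Without pairing the days of a line, none of the 12 reached an unadjusted p under 0.05 in any of the 3 tests, where 6.31%, 5.13% and 3.85% of all genes did. Over day 2.5 to day 3 the interaction was below 0 for 12 of 12 genes with a median of -0.36, and the smallest p was that of mt-Nd4 at -0.54 ± 0.27 (adjusted p = 0.999, edgeR). With the line as a replicate block, 7 of 12 genes reached an unadjusted p under 0.05 over that step, where 5.76% of all genes did, and 0 of 12 were called, beside 0% of all genes. These 7 were mt-Nd1, mt-Nd2, mt-Co1, mt-Atp6, mt-Nd4, mt-Nd5 and mt-Cytb, all below 0, from -0.31 ± 0.14 for mt-Nd5 to -0.57 ± 0.16 for mt-Nd4, with an adjusted p of 0.853 for each in edgeR. The blocked median was -0.40, and mt-Nd3 alone was above 0, at 0.09 ± 0.32. In the blocked fits of the other steps 0 of 12 reached an unadjusted p under 0.05. Without the block and with no filter beyond 1 count, 7 of 13 genes did over day 2.5 to day 3, beside 5.19% of all genes. The count of 8 genes called in wt and 10 in het over the first step is therefore not a tested difference.

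The nuclear genes that make, cut and translate these mRNAs were listed by role with results of these data known. The 10 genes of mitochondrial transcription include Polrmt, the RNA polymerase itself, Tfam, which packages mitochondrial DNA and opens its promoters, and Tefm, an elongation factor. Of these 10, 1 was called higher and 3 lower in wt from day 0 to day 2, and 0 higher and 6 lower in het, where 21.9% and 28.1% of all genes tested were called lower. Polrmt fell by 1.07 ± 0.18 on the log2 scale in wt (adjusted p = 0.0003, edgeR) and by 0.99 ± 0.16 in het, and Tefm by 0.64 ± 0.15 and 0.75 ± 0.14. From day 2 to day 2.5, 4 of 10 were called higher in wt and 5 in het, with 0 lower in either, beside 14.6% and 21.8% of all genes higher, and Tfam was at 0.45 ± 0.12 in wt. From day 2.5 to day 3, 1 of 10 was called lower in wt and 5 in het, beside 10.1% and 16% of all genes. The wt counts of 3 and 1 are near the share over all genes.

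Of 23 genes of mitochondrial RNA processing and stability, 0 were called higher and 13 lower in wt from day 0 to day 2, and 2 higher and 15 lower in het. Over all genes, 21.9% and 28.1% were called lower and 22.4% and 28% higher. Elac2, which cuts tRNAs out of the precursor at their 3' ends, fell by 1.55 ± 0.11 in wt (adjusted p = 1.07e-07, edgeR) and by 1.50 ± 0.08 in het. After the Wnt agonist 10 of 23 were called higher in wt and 17 in het, with 0 lower, beside 14.6% and 21.8% of all genes higher. Grsf1, an RNA-binding protein of mitochondrial RNA granules, rose by 2.69 ± 0.13 in wt (adjusted p = 4.54e-08) and by 2.90 ± 0.10 in het (adjusted p = 1.4e-10). By day 3, 5 were lower and 2 higher in wt, and 10 lower and 1 higher in het, beside 10.1% and 16% of all genes lower. Over all genes 8.99% in wt and 13.8% in het were called higher, so the higher counts were not above that share. Hsd17b10, a subunit of the enzyme that cuts tRNAs out at their 5' ends, rose by 0.57 ± 0.11 in wt and 0.29 ± 0.09 in het over that step, and Grsf1 by 0.49 ± 0.15 in wt. Elac2 was at -1.01 ± 0.14 in wt and -1.11 ± 0.08 in het.

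Mitochondrial ribosomal protein genes numbered 78 in the table, of which 77 were tested in each step. Over day 0 to day 2, 1 was called higher and 38 lower in wt, and 3 higher and 47 lower in het, beside 21.9% and 28.1% of all genes lower. Over day 2 to day 2.5, 27 were called higher and 2 lower in wt, and 45 higher and 4 lower in het, beside 14.6% and 21.8% of all genes higher. Over day 2.5 to day 3, 1 was called higher and 33 lower in wt, and 0 higher and 44 lower in het, beside 10.1% and 16% of all genes lower. Their median log2 fold changes over the 3 steps were -0.28, 0.32 and -0.35 in wt and -0.42, 0.39 and -0.39 in het, beside medians within 0.03 of 0 over all genes tested.

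Of 80 listed nuclear subunits of complexes I, III, IV and V, 78 had a row in the table and 76 were tested, and from day 0 to day 2 12 were called higher and 10 lower in wt and 19 higher and 20 lower in het, with medians of 0.03 and 0.01. These shares were at or below those over all genes, of which 22.4% were called higher and 21.9% lower in wt and 28% and 28.1% in het. Over the same step the 12 mitochondrial genes had medians of -0.60 and -0.49. Within complex I, Ndufb10 fell by 0.59 ± 0.11 in wt and by 0.72 ± 0.08 in het, while Ndufa6 rose by 0.93 ± 0.17 in wt and Ndufa13 by 0.91 ± 0.11 in het. In complex IV, Cox6b2, a subunit best known from testis, rose by 1.57 ± 0.28 and 1.72 ± 0.22. Over day 2 to day 2.5, 4 of the 76 were called higher and 1 lower in wt, and 14 higher and 9 lower in het, where the shares over all genes were 14.6% and 14.5% in wt and 21.8% and 22.9% in het. Over day 2.5 to day 3 these were 0 and 3 in wt and 1 and 7 in het, against 8.99% and 10.1% of all genes in wt and 13.8% and 16% in het.

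Of 18 genes of mitochondrial DNA replication and upkeep, 5 were called higher and 5 lower over the first step in either genotype, near the share over all genes of 22.4% and 21.9% in wt and 28% and 28.1% in het. Rrm2b, a ribonucleotide reductase subunit that supplies nucleotides outside S phase, rose by 1.12 ± 0.30 in wt and 0.99 ± 0.17 in het and fell from day 2 to day 2.5 by 1.19 ± 0.22 and by 1.24 ± 0.21. Ssbp1, which coats single-stranded mitochondrial DNA, rose by 0.66 ± 0.11 from day 2 to day 2.5 in wt and fell by 0.54 ± 0.10 in wt and by 0.56 ± 0.08 in het by day 3. Of 8 regulators of mitochondrial biogenesis tested, 1 was called higher and 3 lower in wt over the first step and 2 higher and 5 lower in het, beside 22.4% and 21.9% of all genes in wt and 28% and 28.1% in het. Gabpb1, a subunit of the transcription factor NRF-2, rose by 0.61 ± 0.15 in wt and 0.41 ± 0.11 in het, and Ppargc1b, a PGC-1 coactivator, by 1.13 ± 0.27 in het. Myc fell by 2.19 ± 0.16 over the first step in wt (adjusted p = 1.6e-07, edgeR) and by 1.75 ± 0.11 in het, and Pprc1, a coactivator of the PGC-1 family, by 0.86 ± 0.10 and by 0.78 ± 0.08.

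The mitochondrial stress response list held 18 genes, of which 8 of 17 tested were called higher and 4 lower in wt over the first step and 9 of 18 higher and 5 lower in het. Over all genes 22.4% and 28% were called higher and 21.9% and 28.1% lower, so the lower counts were near the share over all genes. Ddit4, a brake on mTOR signalling, rose by 1.78 ± 0.12 in wt and 2.02 ± 0.10 in het, while Hspd1, the mitochondrial chaperonin, fell by 1.13 ± 0.09 in wt and was also called lower in het. By day 3, Atf4, the transcription factor of the integrated stress response, fell by 0.76 ± 0.11 in wt and by 0.70 ± 0.09 in het. Between het and wt, 1 gene of all these nuclear lists was called on any day, Uqcrq of complex III on day 2, lower in het at -0.73 ± 0.15 (adjusted p = 0.0447, edgeR). Over all genes tested, 0.551% were called on that day in either direction, so this single call is not read as a result about the lists. No test set these lists against other genes, and their link to the mitochondrial counts was not tested.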

How the data were processed

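Poly(A) RNA-seq libraries of 3 wt and 3 het mESC lines on 4 days were analysed. The authors trimmed 75 bp single-end reads (Trim Galore 0.4.4), aligned them to GRCm38.p6 with HISAT2 2.0.5 and quantified genes in SeqMonk, and the deposited raw counts per gene, without normalization, were used. A pair of deposited log2 RPKM tables of other genes and 8 columns of group means were not used. How multi-mapping reads were treated is not stated in the sources used here. Of the 24 sample columns all matched a label by title.

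Counts of 35591 genes (7.10 to 20.8 M per library) were fitted in R 4.3.3 with edgeR 4.0.16 (filterByExpr by group, TMM, glmQLFit and glmQLFTest, Benjamini-Hochberg over all genes tested, called under 0.05), separately for each comparison and only on its groups. SE is the log2 fold change divided by the root of F. DESeq2 1.42.0 was an alternative. The script was tested on simulated data. Scaling was varied (DESeq2 size factors, totals only, chromosome MT left out), as were the filter (1 count in total, or 50 counts on average) and the model (all 24 libraries fitted at once, a replicate block by line number, each line left out in turn). Where a gene symbol had several rows, the row with the most counts was used.

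The line is the replicate, and p-values of het against wt measure the spread between lines. In tests of a step or an interaction without the block, the days of a line were taken as separate samples. With the line as a block in these tests, p-values measure the spread of the change among lines. Line numbers pair the days of a line: deviations from the group mean correlated at -0.10 to 0.48 over 18 pairs, and 14 of 18 matched their own number best. A wt and a het line of the same number are different lines (-0.16 to 0.20 over 12 pairs). GENCODE vM21 transcripts were aligned locally with Biopython 1.88, taking alignments of at least 40 bases, and searched for exact shared stretches of 75 bases on either strand.

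The members and gene lists were chosen with earlier results of these data known. Named were all 13 mitochondrial genes, Smchd1 and, from each nuclear list, up to 2 genes higher and 2 lower with the smallest adjusted p in a comparison, of which a selection is given.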

Additional observations from a re-analysis of the deposited data

Results flagged for a closer look

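The mitochondrial share of counts rose from day 2.5 to day 3 in all 3 wt lines and fell in all 3 het lines, by -0.13 percentage points in the mean change of het less that of wt. The changes were 0.164, 0.0786 and 0.0147 percentage points in wt lines 1, 2 and 3 and -0.0283, -0.0667 and -0.0385 in het lines 1, 2 and 3. This difference in the share was not tested. The test of the interaction for each gene called 0 of 12 by edgeR and by the DESeq2 Wald test, with 0 at an unadjusted p under 0.05 in edgeR. With the line as a replicate block, which pairs the days of a line, edgeR called 0 of 12 and 7 of 12 were at an unadjusted p under 0.05, beside 5.76% of all genes. Without the block and with no filter beyond 1 count, 7 of 13 were, beside 5.19% of all genes. wt line 1, which gave the highest rise, also had the lowest share on day 2.5. Groups of 3 lines are too small for a test of outlying samples.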

How the results depend on the processing

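For het against wt, the number of genes called moved from 0 to 4 on day 0, 2 on day 2 and 2 on day 2.5 with no filter beyond 1 count, to 1 on day 0 and 1 on day 2 by the DESeq2 Wald test, and to 1 on day 0 under the replicate block, where wt and het numbers mark different lines. With 1 line left out the number was 0 to 2 on day 0, 0 to 5 on day 2 and 0 on day 2.5 and day 3. Medians ranged from 0.15 to 0.30, 0.10 to 0.57, 0.04 to 0.47 and -0.18 to 0.08 on the 4 days, and from 0.04 to 0.32 on the summed counts.

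In wt over day 2 to day 2.5, 2 genes called became 0 with library totals alone, 5 with no filter and 4 under the replicate block, and over day 2.5 to day 3, 0 became 2 with no filter and 6 under the block. In het over day 2 to day 2.5, 9 became 4 in a fit of all 24 libraries, and the median changed sign to 0.0286 with library totals alone and 0.107 without het line 3. Over day 2.5 to day 3 in het, 2 became 1 with DESeq2 size factors, 1 with library totals alone and 0 in the fit of all libraries. The block changed the number called over no other step by more than 1.5 times.

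With 1 line left out, the number called ranged from 3 to 9, 1 to 2 and 0 to 1 over the 3 steps in wt and from 8 to 9, 4 to 9 and 0 to 2 in het. Medians were -0.71 to -0.51, -0.36 to 0.0905 (above 0 without wt line 1, and at 0.0736 without wt line 2) and 0.25 to 0.49 in wt and -0.53 to -0.48, -0.16 to 0.11 and -0.13 to -0.04 in het. The interaction medians were -0.18 to 0.23, -0.12 to 0.36 and -0.48 to -0.26, with 0 genes called. No called gene changed direction in any alternative. The cause of these shifts was not tested, apart from fewer lines where one was left out. The percent of counts moved by less than 1 SD in every group under percent of nuclear counts, which is nearly the same measure, and TMM-scaled CPM. Leaving out 1 of 3 lines cannot move a mean by 1 SD, so that setting was no check of the percent. Depth limits mt-Nd4l and mt-Atp8, with at most 6 and 20 counts per library.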
